A study of Mus musculus with 19 samples.

Results

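The 9 genes described here are *Il20rb*, *Stap2*, *Stk17b*, *Adamts10*, *Bmp1*, *Cep76*, *Neb*, *Myo15* and *Fam107b*. They are protein-coding genes of a 41128-gene count table, found by their GENCODE M21 names, and all 9 were among the 16841 genes with enough counts to be tested. They had been picked from these data because their WT level was at least 3 times higher in the cerebellum than in either other region and because their level was lower in the knock-in (KI) cerebellum. Those 2 differences are therefore given as a description, without a test. The libraries came from 3-month-old C57BL/6 mice, either wild type (WT) or germline SCA17 knock-in, in which *Tbp* encodes TATA box-binding protein with an expanded polyglutamine tract. According to the study's methods, TBP floxed mice were bred to EIIa-Cre mice, which recombine in the early embryo, and then to WT mice, so the mutation is not restricted to a tissue or cell type. The cerebellum was represented by 3 WT and 4 KI libraries, and the striatum and the prefrontal cortex by 3 WT and 3 KI libraries each, 19 in all. By *Xist* and Y-linked counts both sexes were present in every group. In striatum and prefrontal cortex, KI replicates 1 and 2 were male and KI replicate 3 female. WT replicate 1 was male and WT replicates 2 and 3 female there, so sex and genotype are partly confounded.

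Spinocerebellar ataxia type 17 is caused by an expanded glutamine repeat in TBP, a general transcription factor used in every cell type, and ataxia with loss of cerebellar Purkinje cells is its best-known feature. The cerebellar cortex is built of few Purkinje cells, its only output neurons, and very many granule cells, and bulk cerebellar RNA mixes the transcripts of both. In bulk tissue, fewer cells of a type and less RNA per cell cannot be told apart. The 9 genes have no known pathway common to all, although the products of *Il20rb* and *Stap2* are both linked to STAT3. *Il20rb* encodes the beta chain of the receptor for the cytokines IL-19, IL-20 and IL-24, which signals through JAK1 and STAT3. *Stap2* encodes an adaptor protein that binds phosphorylated signalling proteins and modulates STAT3 and STAT5. *Stk17b* encodes a serine/threonine kinase of the death-associated protein kinase family. *Adamts10* and *Bmp1* encode secreted zinc metalloproteases: ADAMTS10 binds fibrillin microfibrils, and BMP1 removes the C-terminal propeptide of procollagens and cleaves the BMP inhibitor chordin. *Cep76* encodes a centrosomal protein that limits centriole duplication. *Neb* encodes nebulin, a very large protein of the thin filaments of skeletal muscle. *Myo15*, also called *Myo15a*, encodes an unconventional myosin that elongates the stereocilia of inner-ear hair cells. *Fam107b* encodes a small, little-characterised protein related to the actin-associated FAM107A.

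Because TBP binds the TATA box and SP1, which the study links to TBP, binds the GC box, the upstream sequences of the genes were searched for their core letters, TATAAA and GGGCGG, on both strands. RefSeq start-site windows (250 bases before to 50 after a start, GRCm38.p6) were given for 5 of the 9 genes, 6 windows in all, of which *Stap2* had 2. TATAAA was in 0 of these 6 windows and in 13.6% of all 32851 windows. GGGCGG was in 4 of the 6 and in 35.7% of all windows, and in the 100 bases before the start it was in 4 of 6 and 24.7%, so these 6 windows are too few to set the genes apart. The sequences below are printed 5′ to 3′ on the strand of the gene, with GGGCGG or its complement CCGCCC in capitals. They show bases before a RefSeq start for the genes with the largest differences (*Myo15*, *Il20rb* and *Stap2*), beside the CpG-rich ones of *Stk17b* and *Fam107b*. The *Fam107b* window lies inside the GENCODE gene, so its start is an internal one and not the upstream end of the gene. Bases in GENCODE exons were left out except for *Il20rb*, whose RefSeq upstream window lies within a GENCODE exon and of which only the 30 bases around the match are shown.
Myo15, chr11:60469089-60469338, plus strand: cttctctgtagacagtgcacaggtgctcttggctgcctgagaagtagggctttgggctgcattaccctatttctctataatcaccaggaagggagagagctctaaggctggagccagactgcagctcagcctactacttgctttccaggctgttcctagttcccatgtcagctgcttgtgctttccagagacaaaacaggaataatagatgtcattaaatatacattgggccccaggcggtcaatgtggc
Il20rb, chr9:100486506-100486535, minus strand: gtgctgcaaagcCCGCCCattttgagcatt
Stap2, chr17:56005607-56005710, minus strand: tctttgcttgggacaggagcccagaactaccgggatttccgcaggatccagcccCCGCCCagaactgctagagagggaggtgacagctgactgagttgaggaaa
Stk17b, chr1:53785225-53785465, minus strand: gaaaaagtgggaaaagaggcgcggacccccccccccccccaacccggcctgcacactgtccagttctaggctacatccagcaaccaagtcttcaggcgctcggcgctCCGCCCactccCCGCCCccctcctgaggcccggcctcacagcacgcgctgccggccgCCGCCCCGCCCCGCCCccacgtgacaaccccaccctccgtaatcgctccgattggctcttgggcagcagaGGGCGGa
Fam107b, chr2:3713208-3713457, plus strand: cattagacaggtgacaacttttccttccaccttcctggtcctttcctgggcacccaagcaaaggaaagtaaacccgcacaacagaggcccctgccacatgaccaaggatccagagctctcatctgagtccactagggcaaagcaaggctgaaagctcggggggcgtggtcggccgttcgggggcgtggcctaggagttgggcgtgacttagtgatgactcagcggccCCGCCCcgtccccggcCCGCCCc

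In *Il20rb* and in *Stap2* the only match began at base -50 from the start, and *Myo15* had none. *Stk17b* had 6 matches and *Fam107b* 3, of which 1 was at base 41 after the start, outside the printed sequence. The windows of *Myo15* and *Il20rb* each held 1 CpG and the nearer window of *Stap2* held 5, against 24 in *Stk17b*, 22 in *Fam107b* and a median of 7 over all windows. A match in these letters is not a binding site, and no binding was measured in these libraries.

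The genes lie on 7 chromosomes in GRCm38. *Stk17b* is at chr1:53755506-53785224 on the minus strand. On chromosome 2, *Fam107b* is at chr2:3570488-3782142 on the plus strand and *Neb* at chr2:52136647-52378474 on the minus strand. *Il20rb* occupies chr9:100457719-100486788 (minus), *Myo15* chr11:60469339-60528369 (plus), *Bmp1* chr14:70474558-70520234 (minus) and *Cep76* chr18:67617800-67641336 (minus). Chromosome 17 holds *Adamts10* at chr17:33524204-33553782 (plus) and *Stap2* at chr17:55997077-56005584 (minus), 18 and 40.5 Mb from the end of *Tbp*. *Neb* was the longest, with 26582 exon bases in 166 exon blocks, and 45 of them (0.169%) are shared with the antisense gene *Gm13522*. No other member shared exon bases with another gene.

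Levels are given as CPM, the reads of a gene divided by the scaled total of its library in megareads. Library totals ranged from 10639110 to 17431284 counts. *Il20rb* had the strongest regional contrast of the 9 genes. It stood at 227, 187 and 232 CPM in the 3 WT cerebellum libraries and at 55.1, 71.6, 53.9 and 61.4 CPM in the 4 KI cerebellum libraries. The lowest WT library was thus well above the highest KI library, and the KI mean (60.5 ± 8.10 CPM, SD, n = 4) was 28.1% of the WT mean (215 ± 24.7 CPM, n = 3), with a fitted log2 fold change of -1.83 (SE 0.15). In the striatum and prefrontal cortex the receptor chain was close to the detection limit. WT levels were 1.07, 0.520 and 0.850 CPM in striatum and 0.685, 0.339 and 0.404 CPM in prefrontal cortex, from 5 to 16 reads per library. The WT ratio of cerebellum to striatum was 265, and that of cerebellum to prefrontal cortex was 452. In KI mice the ratios were 180 and 240, so *Il20rb* remained a cerebellar transcript in the KI brain. The KI ratios are imprecise, because they rest on 1 to 8 reads per library in striatum and 3 to 4 in prefrontal cortex.

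*Stap2* measured 42.5, 74.6 and 62.5 CPM in WT cerebellum and 13.8, 21.1, 23.3 and 23.9 CPM in KI cerebellum. The WT libraries varied more for this adaptor than for any other of the 9 genes, and the KI libraries were still all lower. Its mean went from 59.9 ± 16.2 CPM (n = 3) to 20.5 ± 4.62 CPM (n = 4), or 34.3% of WT, a log2 fold change of -1.54 (SE 0.20). WT cerebellum exceeded striatum by a ratio of 20.1 and prefrontal cortex by 16.5, and in KI mice these ratios were 6.36 and 5.67. All 12 striatal and cortical libraries lay between 2.63 and 4.45 CPM.

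The kinase gene *Stk17b* had the smallest difference of the 9. Its WT cerebellum libraries read 105, 118 and 134 CPM and its KI libraries 85.3, 70.5, 74.5 and 74.1 CPM. The KI mean of 76.1 ± 6.43 CPM was 63.9% of the WT mean of 119 ± 14.3 CPM, and the log2 fold change was -0.65 (SE 0.14). The WT cerebellum was 9.68 times the striatum and 8.78 times the prefrontal cortex, against 5.76 and 5.61 times in KI mice.

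Relative to their means, both metalloprotease genes were spread more widely among KI cerebella than among WT cerebella. *Adamts10* was at 142, 198 and 186 CPM in WT and at 56.6, 65.9, 89.8 and 129 CPM in KI libraries, so that the highest KI library came close to the lowest WT library without reaching it. Mean levels were 175 ± 29.4 CPM and 85.2 ± 32.1 CPM (48.7% of WT), a log2 fold change of -1.04 (SE 0.22). *Bmp1* was at 257, 269 and 257 CPM in WT and at 119, 155, 172 and 205 CPM in KI libraries. Its means were 261 ± 6.96 CPM and 163 ± 35.8 CPM (62.4% of WT), a log2 fold change of -0.68 (SE 0.15). *Bmp1* was also the least restricted to the cerebellum of the 9 genes, with WT ratios of 6.01 to striatum and 3.12 to prefrontal cortex. For *Adamts10* these ratios were 11.3 and 6.78.

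*Cep76* was nearly constant among WT cerebella, at 144, 145 and 145 CPM. The KI libraries gave 100, 71.8, 65.7 and 69.9 CPM, in which replicate 1 stood above the other 3. The KI mean was 76.9 ± 15.7 CPM against 144 ± 0.635 CPM in WT (53.3%), a log2 fold change of -0.91 (SE 0.14). Its WT cerebellar level was 21.4 times the striatal and 16.1 times the cortical level.

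*Neb* and *Myo15* are best known outside the brain, in muscle and in hair cells. *Neb* was at 49.4, 52.2 and 67.7 CPM in WT cerebellum and at 25.8, 27.4, 30.3 and 28.96 CPM in KI cerebellum, which were the most uniform KI libraries of any member. Its mean was 56.4 ± 9.87 CPM in WT and 28.1 ± 1.95 CPM in KI mice (49.8%), a log2 fold change of -1.004 (SE 0.20). WT ratios of cerebellum to striatum and prefrontal cortex were 32.4 and 15.4. Skeletal muscle markers were near 0 in the same libraries: summed over *Acta1*, *Ckm*, *Myh4*, *Mylpf* and *Tnnt3*, they came to between 2.72 and 5.21 CPM in the 7 cerebellum libraries, and *Ckm* and *Myh4* had 0 counts in all 3 WT ones.

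*Myo15* had the largest relative difference and the lowest level. Its counts were 111, 132 and 95 reads in the WT cerebellum libraries and 6, 15, 6 and 10 reads in the KI libraries, or 7.13, 8.65 and 7.68 CPM against 0.338, 0.831, 0.336 and 0.605 CPM. The KI mean (0.527 ± 0.239 CPM) was 6.74% of the WT mean (7.82 ± 0.767 CPM), with a log2 fold change of -3.87 (SE 0.44). In the other regions *Myo15* had 1 to 8 reads per library, several of them at or below 3 reads, so its regional ratios (19.6 to striatum and 24.7 to prefrontal cortex in WT) are imprecise. In KI mice the cerebellar level was 3.21 times the striatal and 1.59 times the cortical level.

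*Fam107b* was at 215, 188 and 196 CPM in WT and at 108, 99.4, 81.8 and 95.2 CPM in KI cerebellum. Its mean was 199 ± 13.6 CPM in WT and 96.1 ± 10.9 CPM in KI mice (48.2%), a log2 fold change of -1.05 (SE 0.19). The WT ratios to striatum and prefrontal cortex were almost alike, 12.9 and 13.0.

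**Figure D1:**
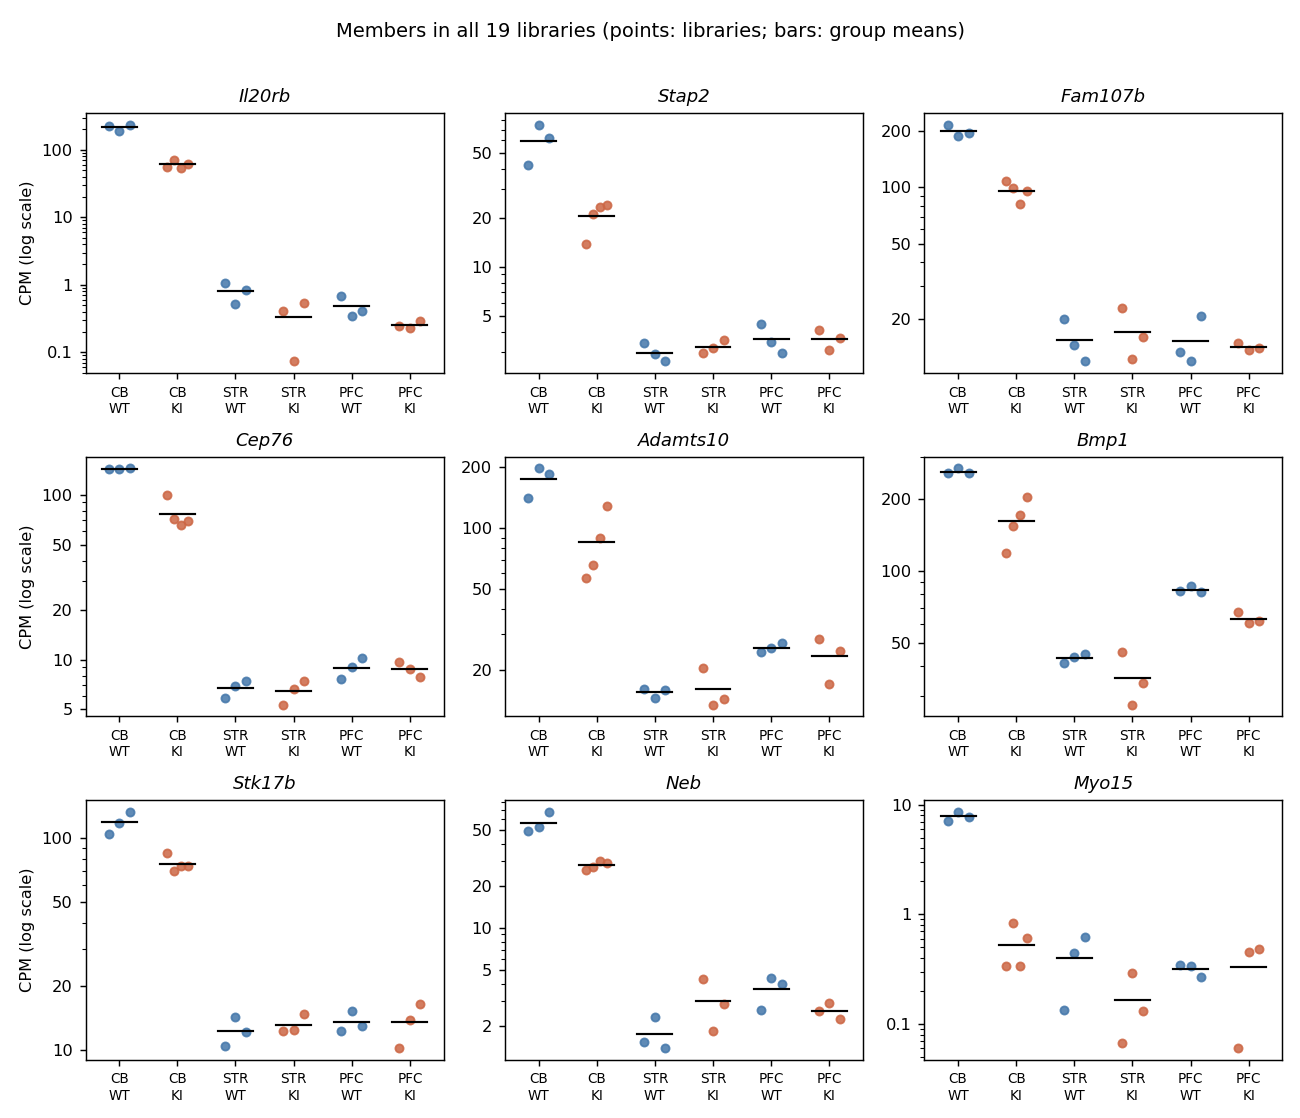
CPM (log scale, a separate range for each gene) of the 9 genes in all 19 libraries, with WT in blue, KI in orange, and bars at group means (CB for cerebellum, PFC for prefrontal cortex, STR for striatum). In each panel all 4 KI cerebellum points lie below all 3 WT points, and both lie above the other regions except for *Myo15*, whose KI cerebellum points (0.336 to 0.831 CPM) overlap those of the other regions.

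All 9 genes thus had every KI cerebellum library below every WT one. Over the 16841 tested genes, 6.47% had this pattern and 0.315% were called lower at 0.05 in edgeR's quasi-likelihood test (Benjamini-Hochberg adjusted). The members had been chosen for this difference, so nothing is read from their share. Their median log2 fold change was -1.04, against 0.01 over all tested genes. By the limit of 3 times used for the choice, 682 tested genes were enriched in WT cerebellum, with a median of -0.26 and 536 of them (78.6%) below 0. Among the 682 genes, 16 that are not members were called lower in the KI cerebellum, with log2 fold changes from -2.96 for *Cdc20*, a cell-cycle regulator, to -0.51 for *Inpp5a*, and the next most negative were *Car9*, a carbonic anhydrase (-2.64), and *Gm15083* (-2.54). In the order of all 682 genes from the most to the least negative value, *Myo15* was the first, *Il20rb* was at place 10, *Stap2* at 17 and *Stk17b* at 123. The 9 genes are therefore a selection from this range, not its extreme end.

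Divided by exon length, the order of WT cerebellar levels was *Il20rb* (51.1 ± 5.86 CPM per kb), *Fam107b* (46.1 ± 3.13), *Cep76* (38.1 ± 0.168), *Bmp1* (29.4 ± 0.785), *Stap2* (23.3 ± 6.29), *Stk17b* (23.0 ± 2.76), *Adamts10* (21.2 ± 3.56), *Neb* (2.12 ± 0.371) and *Myo15* (0.613 ± 0.0601; SD, n = 3 each). The libraries of *Il20rb* and *Fam107b* overlapped on this scale, as did those of *Bmp1* and *Stap2*, of *Stap2* and *Stk17b*, and of *Stk17b* and *Adamts10*. *Neb* and *Myo15* stood apart at the low end. Their exon lengths of 26582 and 12760 bases include every annotated exon, so a shorter transcript would have a higher level per kb.

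The KI effect in each forebrain region was not itself used to choose the genes and was tested. The WT libraries of both regions had entered the WT ratios used for the choice, so these tests are not fully independent of it. In the striatum 0 of the 9 genes passed edgeR's quasi-likelihood test, against 0.582% of all tested genes, and in the prefrontal cortex 0 of 9 passed, against 0.107%. DESeq2 also called 0 in each region. *Il20rb* and *Myo15* had enough counts to be tested only through their cerebellum libraries. With so small a share of calls over all genes, 0 of 9 says little about the members. At an unadjusted p of 0.05, 2 of 9 passed for the striatum and 1 of 9 for the prefrontal cortex, where 8.12% and 5.93% of all genes did.

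*Il20rb* was at 0.406, 0.0733 and 0.529 CPM in KI striatum (6, 1 and 8 reads) and at 1.07, 0.520 and 0.850 CPM in WT striatum. The groups overlapped slightly, and the log2 fold change of -1.24 (SE 0.42) had an adjusted p of 0.345 in edgeR's quasi-likelihood test (unadjusted 0.00962). In the prefrontal cortex the KI libraries (0.242, 0.225 and 0.290 CPM) were below all WT libraries. Those values came from 3 or 4 reads in each KI library, and the log2 fold change of -0.91 (SE 0.51) had an adjusted p of 0.893 in edgeR. Neither difference passed the adjustment, and without KI striatum replicate 2, which had 1 read, the striatal value was -0.80.

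*Bmp1* had higher counts outside the cerebellum. It was at 67.3, 60.6 and 62.0 CPM in KI and 82.5, 86.6 and 81.8 CPM in WT prefrontal cortex, without overlap. The log2 fold change was -0.40 (SE 0.16), with an unadjusted p of 0.0248 and an adjusted p of 0.775 in edgeR, which did not pass. In the striatum KI libraries at 46.0, 27.7 and 34.0 CPM overlapped WT libraries at 41.5, 43.6 and 45.2 CPM, and the log2 fold change was -0.27 (SE 0.17, edgeR adjusted p 0.730). *Il20rb* and *Bmp1* were the 2 members whose groups did not overlap in the prefrontal cortex, a lower pattern shown by 4.32% of all genes, and 0 members had non-overlapping groups in the striatum, against 14.1% of all genes in either direction.

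For *Neb* the 2 regions had opposite signs. KI striatum read 4.33, 1.83 and 2.84 CPM and WT striatum 1.54, 2.30 and 1.39 CPM, a log2 fold change of +0.79 (SE 0.28, unadjusted p 0.0133, edgeR adjusted p 0.393). That value ranged from 0.43 without KI striatum replicate 1, the highest KI library, to 1.04 without KI striatum replicate 2, the lowest. KI prefrontal cortex read 2.55, 2.92 and 2.23 CPM and WT 2.60, 4.41 and 3.98 CPM, a log2 fold change of -0.51 (SE 0.27, edgeR adjusted p 0.893). Groups overlapped in both regions. Tested directly, the difference between the 2 effects was 1.29 on the log2 scale (SE 0.39) with an unadjusted p of 0.00422, and it did not pass the adjustment in edgeR (adjusted p 0.990), for which 0 of 16841 genes did and 743 had an unadjusted p under 0.05.

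The other 6 genes had striatal log2 fold changes from -1.24 (*Myo15*, SE 0.69, on 1 to 8 reads) to +0.14 (*Fam107b*, SE 0.22) and cortical ones from -0.14 (*Adamts10*, SE 0.26) to +0.0034 (*Stap2*, SE 0.25). Over the 9 genes the striatal median was +0.06 and the cortical median -0.11, against -0.0073 and 0.0019 over all tested genes. With 3 libraries a group, standard errors of 0.16 to 0.28 for the 7 genes other than *Il20rb* and *Myo15* set the precision of these comparisons.

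**Figure D2:**
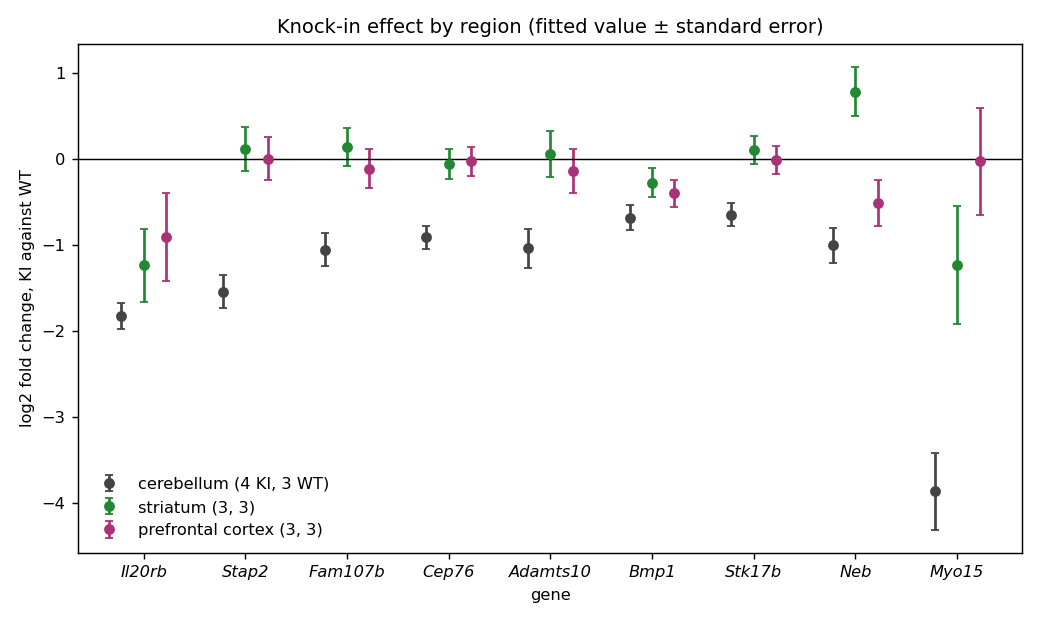
Log2 fold change of KI against WT for each gene in the cerebellum (grey), striatum (green) and prefrontal cortex (purple), with bars of 1 standard error. Cerebellar values run from -3.87 to -0.65 by choice of the genes. The striatal value of *Neb* is +0.79 (0.43 without KI replicate 1), and *Il20rb* and *Myo15* have the widest bars because of their low counts there.

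Between the 2 regions in which the genes were low, WT striatum and WT prefrontal cortex, 3 of the 9 genes differed by edgeR's quasi-likelihood test, as did 30.5% of all tested genes. All 3 were lower in the striatum, as were 16.4% of all genes. They were *Bmp1* (43.5 against 83.6 CPM on average, log2 difference -0.94, SE 0.16, adjusted p 0.000324), *Neb* (1.74 against 3.66 CPM, -1.07, SE 0.28, adjusted p 0.00781) and *Adamts10* (15.5 against 25.8 CPM, -0.73, SE 0.26, adjusted p 0.043), whose call was lost in 9 of 19 fits that left out 1 library. *Cep76* came close (-0.41, SE 0.17, edgeR adjusted p 0.0762). In KI mice 1 of 9 differed, *Bmp1* (-0.82, SE 0.17, edgeR adjusted p 0.00144), against 28.7% of all genes. KI differences were +0.22 (SE 0.27) for *Neb* and -0.54 (SE 0.26) for *Adamts10*, which did not pass. The order of regions in WT mice was therefore cerebellum, prefrontal cortex, striatum for those 3 genes, and for the other 6 the difference between striatum and prefrontal cortex did not pass the test. The first place of the cerebellum was set by the choice of the genes. The WT striatum and prefrontal cortex libraries had also entered that choice, so their comparison is not independent of it.

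The cell composition of the libraries was followed with marker lists. Tissue markers matched the labels, with granule cell markers summing to between 4202 and 5294 CPM in all cerebellum libraries and at most 412 CPM elsewhere. The 9 markers of striatal medium spiny neurons summed to 5568 to 7954 CPM in KI and 10305 to 11945 CPM in WT striatum. There 8 of the 9 had log2 fold changes below 0, and 0 passed in edgeR after adjustment. Their sum ranged from 319 to 893 CPM in WT and 236 to 1177 CPM in KI prefrontal cortex. Cortical excitatory neuron markers ranged from 46.3 to 262 CPM in WT striatum. In the KI cerebellum the 10 Purkinje cell markers summed to 4761 to 6693 CPM, below the WT range of 7586 to 8112 CPM, and all 10 had log2 fold changes below 0 (median -0.47). After adjustment only *Pcp2*, a Purkinje cell signalling protein, passed (189 ± 26.8 to 84.8 ± 14.3 CPM, log2 fold change -1.16, SE 0.14, edgeR adjusted p 0.000196). The calcium-binding protein gene *Calb1* (-0.50, SE 0.19) and the carbonic anhydrase-related gene *Car8* (-0.57, SE 0.17) did not. Before adjustment, 7 of the 10 Purkinje cell markers passed in edgeR, *Calb1* and *Car8* among them, against 10.1% of all tested genes. Granule cell markers overlapped between WT (4239 to 5294 CPM) and KI mice (4202 to 4723 CPM), with 8 of 10 below 0 (median log2 fold change -0.24) and 0 calls in edgeR, adjusted or not. The 5 microglial markers were higher in sum (90.1 to 130 against 67.7 to 71.2 CPM), and 0 of the 5 had a log2 fold change below 0. In edgeR 4 of them passed before adjustment and 3 after it: *Cx3cr1*, *Csf1r* and *Aif1*. In all, 4 of 71 tested markers passed in the KI cerebellum, against 0.831% of all genes, and 2 passed without WT cerebellum replicate 3. Choroid plexus markers, led by *Ttr*, were high in WT replicate 1 (1948 CPM) and KI replicate 3 (4891 CPM) and at most 31.1 CPM in the other 5 cerebellum libraries. The part of these shifts in the values of the 9 genes was not tested. As percentages of their own WT mean, the KI means of the members were between 6.74% and 63.9%, and the Purkinje cell marker sum was at 70.7%. The members had been chosen for their fall, so nothing is read from their place below the marker sum.

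The 4 KI cerebellum libraries ranked the genes in different orders. KI replicate 1, which had the highest Purkinje cell marker sum (85.2% of the WT mean), was the highest of the 4 for *Fam107b*, *Cep76* and *Stk17b* and the lowest for *Stap2*, *Adamts10*, *Bmp1* and *Neb*. *Adamts10* went from 32.3% of the WT mean in replicate 1 to 73.4% in replicate 4, and *Bmp1* from 45.7% to 78.6% in the same libraries, while *Cep76* went from 45.5% in replicate 3 to 69.4% in replicate 1. *Myo15* stayed between 4.30% and 10.6% in all 4. KI replicate 3, the library with choroid plexus markers, was the lowest for *Il20rb*, *Fam107b*, *Cep76* and *Myo15*, and the next lowest library of each gene was also below all WT libraries. Among WT libraries, replicate 1 was the lowest for 7 of the 9 genes.

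**Figure D3:**
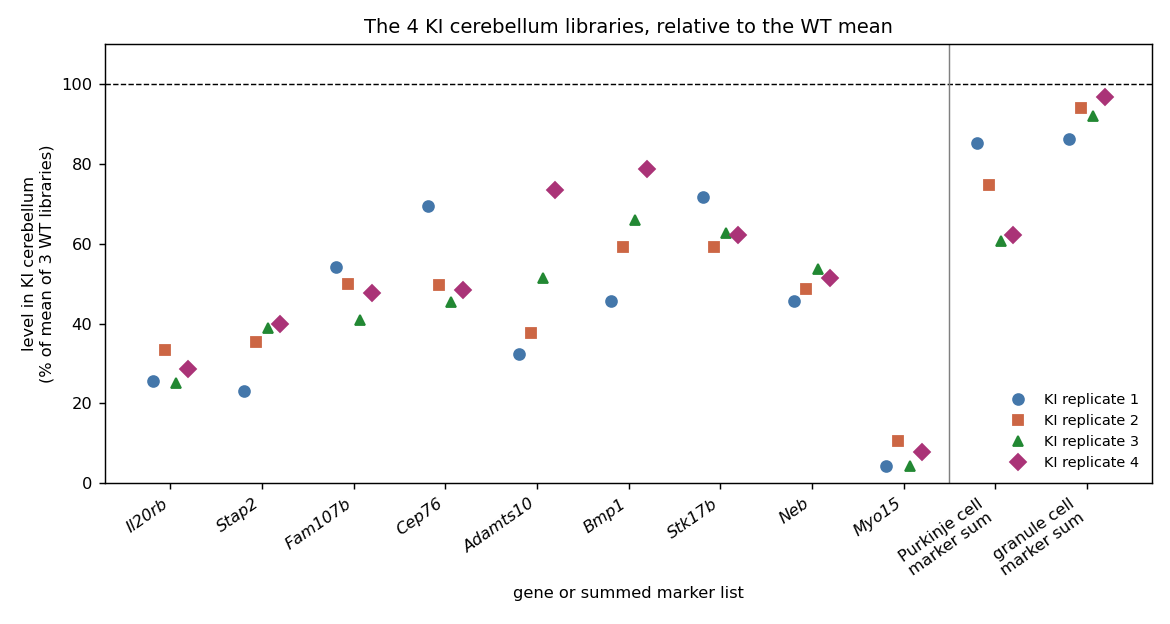
Level in each KI cerebellum library as a percentage of the mean of the 3 WT libraries (dashed line at 100%), for the 9 genes and, right of the grey line, the summed Purkinje and granule cell markers. Replicate 1 is at the top for *Cep76* (69.4%) and the Purkinje sum (85.2%) and at the bottom for *Adamts10* (32.3%) and *Bmp1* (45.7%).

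Genes of the same families, complexes and pathways were examined beside the 9 members. Of 113 listed relatives 92 had enough counts, and in the KI cerebellum 0 fell and 1 rose by edgeR's quasi-likelihood test, against 0.831% of all tested genes in either direction. At an unadjusted p of 0.05, 11 of the 92 passed, where 10.1% of all genes did. DESeq2 called 2 relatives, against 176 higher and 154 lower genes in all. The gene that rose was *Csf1r*, the receptor of a macrophage growth factor that STAP2 binds and a microglial marker (32.3 ± 2.42 to 52.9 ± 10.4 CPM, log2 fold change 0.71, SE 0.13, adjusted p 0.0129 in edgeR), and 0 relatives were called without WT cerebellum replicate 2 or 3. The cytokines *Il19*, *Il20* and *Il24* that bind the IL20RB receptor had at most 2 reads in any library and were not tested. *Il20ra*, which encodes a partner chain of IL20RB, was at 0.347 ± 0.326 CPM in WT cerebellum, far below the 215 CPM of the beta chain. *Il10rb*, a subunit of related receptors, was at 8.32 ± 1.39 CPM in WT and 9.21 ± 2.14 CPM in KI cerebellum.

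Among the relatives of the intracellular members, *Fam107a* was at 357 ± 205 CPM in WT and 338 ± 229 CPM in KI cerebellum (log2 fold change -0.08, SE 0.68). *Dapk1*, *Dapk2* and *Dapk3*, the kinases most like STK17B, had log2 fold changes of 0.31, -0.32 and -0.07. *Ccp110*, whose product works with CEP76 at the centriole, had -0.20 (SE 0.19), and the 12 centriole genes had a median of -0.16 with 0 calls. For the metalloproteases, *Adamts6*, the closest relative of *Adamts10*, had 0.08 (SE 0.39), its binding partner *Fbn1* 0.23 (SE 0.46), and *Tll1*, the closest relative of *Bmp1*, -0.01 (SE 0.25). *Chrd*, which encodes the BMP1 substrate chordin, was at 47.6 ± 8.94 CPM in WT and 32.5 ± 6.15 CPM in KI cerebellum (-0.55, SE 0.23, unadjusted p 0.0316, edgeR adjusted p 0.428). *Nebl*, the nebulin relative of non-skeletal tissues, was at 98.4 ± 5.10 and 93.9 ± 10.4 CPM. *Whrn* and *Eps8*, whose products are carried by myosin XV to stereocilia tips, had 0.20 (SE 0.17) and -0.0037 (SE 0.14). In the striatum and prefrontal cortex 0 of the 92 relatives passed edgeR's test, where 0.582% and 0.107% of all genes did. At an unadjusted p under 0.05 there were 4 and 6, against 8.12% and 5.93% of all genes, and DESeq2 called 1 relative in each region, against 213 and 56 genes in all.

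The nearest tested gene on each side of every member, 18 genes in all, gave 0 calls in the KI cerebellum by edgeR's quasi-likelihood test and 0 by DESeq2, against 0.831% of all genes, and their median log2 fold change was -0.08. The closest were *Mpnd*, which starts 0.127 kb from *Stap2* on the opposite strand, with 0.03 (SE 0.07), *Fsd1*, which ends 0.196 kb from its other side, with -0.19 (SE 0.11), and *Psmg2*, 0.263 kb from *Cep76* on the opposite strand, with -0.10 (SE 0.10). *Drg2*, which ends 0.585 kb before *Myo15*, was at 98.6 CPM in WT and 93.0 CPM in KI cerebellum. Of the 18, *Rif1*, next to *Neb*, was itself enriched in WT cerebellum (7.11 and 6.17 times the striatum and prefrontal cortex), at 216 CPM in WT and 220 CPM in KI cerebellum. The largest value, 1.98 for *Dnah7a*, a dynein heavy chain gene beside *Stk17b*, had an SE of 0.87 and rested on 0.0698 and 0.301 CPM.

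**Figure D4:**
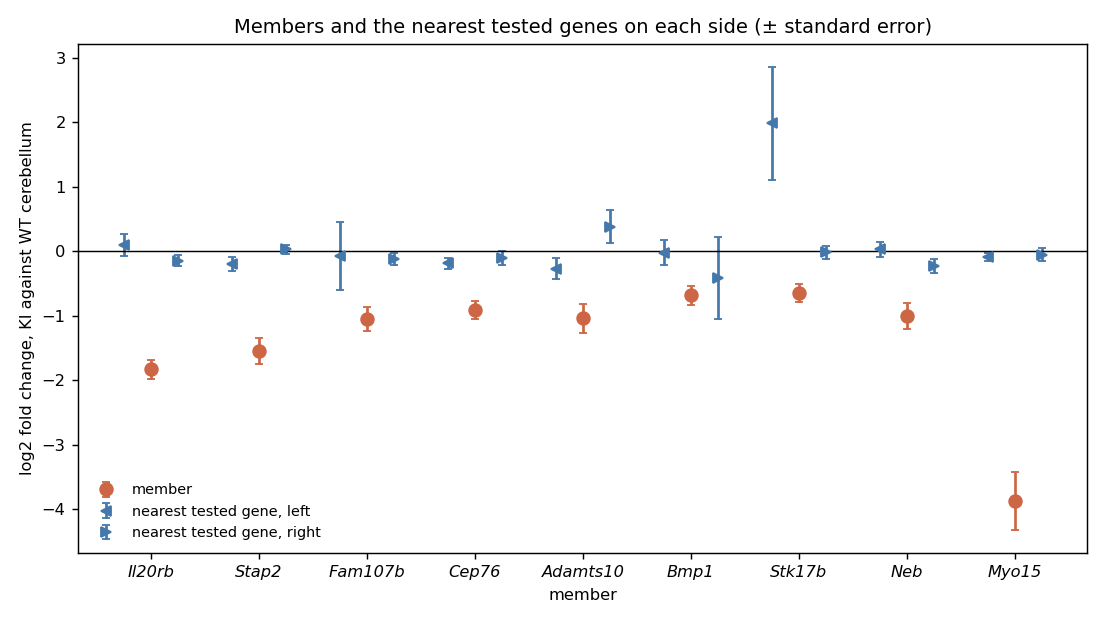
Log2 fold change of KI against WT cerebellum for the 9 genes (orange) and the nearest tested gene on the left and right of each (blue triangles), with bars of 1 standard error. The members lie between -3.87 and -0.65 and the 18 neighbours between -0.41 and 1.98, with 0 of the neighbours past the test.

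Across the 19 libraries, the gene whose log2 CPM followed each member most closely was found by Pearson's r. These values rest mainly on the split between cerebellum and the other regions that all points share. *Cep76* was most like *Pcp2* (r = 0.994), *Stk17b* like *Gm14033* (0.993), *Il20rb* like *Rgl3* (0.987), *Stap2* like *Il22* (0.986), *Adamts10* like *Gm27016* (0.986), *Fam107b* like *Plekhd1os* (0.984), *Neb* like *Plekhh3* (0.983), *Bmp1* like *Tmem132a* (0.979) and *Myo15* like *Zfp692* (0.882). Reads of *Il22* can be shared with a near-identical copy, so its level is uncertain. *Zfp692* was enriched only 1.79 and 1.56 times in the cerebellum, and its r was the lowest of the 9. Of these 9 genes, *Pcp2* passed in the KI cerebellum, and the other 8 had log2 fold changes from -1.24 (*Il22*, SE 0.35) to -0.26 (*Tmem132a*, SE 0.08) that did not pass in edgeR. The correlations included the KI and WT cerebellum libraries in which the members were chosen to differ. Values below 0 in the correlated genes are therefore partly set by that choice, and nothing is read from them.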

How the data were processed

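RNA from cerebellum, striatum and prefrontal cortex of WT and SCA17 knock-in mice was made into SMART-Seq v4 and Nextera XT libraries. The authors deposited raw read counts per Ensembl gene, without normalization. The submitters' processing notes name bcl2fastq 2.17.1.14, STAR 2.5.2b, HTSeq, DESeq2 1.10.1 and GRCm38.p3, whereas the paper's methods name Cufflinks and Cuffdiff, and the use of strand is not given in the sources used here. A second deposited table of normalised values was not used here. Groups and replicate numbers came from the sample labels.

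Counts were fitted in R 4.3.3 with edgeR 4.0.16 (filterByExpr with a minimum count of 10, TMM scaling, 6 groups, 19 libraries, 13 residual degrees of freedom), and P values from the two-sided quasi-likelihood tests received a Benjamini-Hochberg adjustment over 16841 genes, with a threshold of 0.05. The fit was tested on simulated counts. CPM used TMM-scaled library totals, and log2 CPM a prior count of 2. Standard errors were derived from each log2 fold change and the F statistic of its quasi-likelihood test. A low value was treated as undetected at 3 counts or fewer. Reads carried no molecular identifiers, so this covers counting error alone. The labels name 3 to 4 mice per genotype but do not tie libraries to animals, so P values measure the spread between libraries. Names and positions came from GENCODE M21 (40254 of 41128 identifiers matched), and start-site sequences from RefSeq.

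The members and lists were chosen with earlier results of these data known. Besides the members, the text names the gene most correlated with each, the nearest tested neighbours, relatives and markers past the threshold with at most 4 others of a list, and the 3 enriched non-members with the largest differences; *Inpp5a*, *Rif1* as the enriched neighbour, *Ttr*, *Il19*, *Il20* and *Il24* were named after their values were seen. Alternatives were DESeq2 1.42.0, its size factors in edgeR, 2 other filters on low counts, regions fitted alone, a replicate block, a sex covariate, omission of each library, and a shorter promoter window.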

Additional observations from a re-analysis of the deposited data

How the results depend on the processing

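The 0 calls among the members for the KI effect in each forebrain region and the 0 calls among neighbours held in all 7 alternative fits and all 19 fits without 1 library. With each region alone, *Il20rb* and *Myo15* had too few forebrain counts to be tested, so that fit covered only the other members there. It called 0 genes of any kind in the prefrontal cortex, so it could not have called a member. The median cerebellar log2 fold change of the members lay between -1.07 and -1.03 in the 7 alternatives and between -1.09 and -0.99 with 1 library left out. Over all genes, DESeq2 called 176 higher and 154 lower in the KI cerebellum, against 87 and 53 in edgeR, and 213 striatal and 56 cortical genes, against 98 and 18. With each region alone, 88 genes were lower in the cerebellum and 46 and 0 genes were called in the other regions. Between KI striatum and KI prefrontal cortex 1 member was called, 2 with the sex covariate (the log2 ratio of *Xist* to Y-linked counts), and 1 to 2 with 1 library left out, where 2 occurred without KI cerebellum replicate 1 or KI striatum replicate 3. Between WT regions the count was 3, and 2 to 4 with 1 library left out; the call of *Adamts10* was lost in 9 of the 19 fits, among them each that left out a WT striatum or WT prefrontal cortex library (highest adjusted p 0.131 in edgeR, without WT striatum replicate 2). Relatives called in the cerebellum numbered 1, 2 with DESeq2, 0 with regions alone, and 0 to 2 with 1 library left out (0 without WT cerebellum replicate 2 or 3, 2 without WT prefrontal cortex replicate 1). Markers called numbered 4, 7 with DESeq2, and 2 to 4 with 1 library left out (2 without WT cerebellum replicate 3). The cause was not tested.

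Signs turned for values near 0 that passed no test. The cortical effect of *Stap2* was -0.0037 with DESeq2, -0.0043 with DESeq2 size factors, -0.0041 without a filter, -0.0078 with a mean of at least 1 CPM and -0.061 with the sex covariate. With that covariate the effect was 0.0077 (striatum) and 0.050 (prefrontal cortex) for *Cep76*, -0.021 (striatum) for *Adamts10* and 0.043 (prefrontal cortex) for *Stk17b*. With 1 library left out, the following values crossed 0. Striatum minus prefrontal cortex differences in KI mice ran from -0.019 to 0.89 for *Il20rb*, -0.0070 to 0.45 for *Fam107b*, -0.20 to 0.14 for *Stk17b* and -0.13 to 0.47 for *Neb*. KI effects in the prefrontal cortex ran from -0.12 to 0.18 for *Stap2*, -0.26 to 0.17 for *Fam107b*, -0.13 to 0.079 for *Cep76*, -0.31 to 0.035 for *Adamts10*, -0.17 to 0.16 for *Stk17b* and -0.41 to 0.54 for *Myo15*. KI effects in the striatum ran from -0.13 to 0.37 for *Fam107b*, -0.17 to 0.059 for *Cep76*, -0.16 to 0.17 for *Adamts10* and -0.000092 to 0.23 for *Stk17b*. Striatum minus prefrontal cortex differences in WT mice ran from -0.20 to 0.29 for *Fam107b* and -0.14 to 0.74 for *Myo15*.

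Same-numbered WT and KI libraries of a region did not deviate together (correlations of -0.245 to 0.172 over 9 pairs), so the numbers were not taken as pairs. Pairing across regions was not checked. Same-numbered striatum and prefrontal cortex libraries of a genotype had the same sex by *Xist* and Y-linked counts. Whether they share an animal is not known, and the tests between those regions treated them as independent. With a block for replicate number in each region, 2 members were called between KI striatum and KI prefrontal cortex in place of 1, and the cortical effect of *Stap2* was -0.00028. The block moved the count of calls over all genes from 98 to 72 (striatum) and from 18 to 9 (prefrontal cortex). *Il20rb* and *Myo15* had 1 to 16 reads per library outside the cerebellum.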
